A study of Homo sapiens with 16 samples.

Results

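The genes described here encode acute phase proteins and fibrinogen: FGA, FGB, FGG, HP, HPX, CP, CRP, ORM1, ITIH4 and AHSG. They were taken by gene symbol from the probe table of the array, and were measured in HepG2, an established line from a human liver tumour that still makes many plasma proteins. Of the 10 genes 8 had a probe of that symbol, with 9 probes among 30968 in all. HP and ORM1 had no probe of their symbol and were not analysed here. There were 4 biological replicates in each of 4 groups, all grown in medium without serum: a control without added fatty acid, and cells given oleic, elaidic or stearic acid at 100 µM for 7 days. Oleic and elaidic acid are the cis and trans forms of 1 molecule, and stearic acid is the chain without the double bond. The labels call the replicates biological, and all came from 1 line, so that p-values measure the spread between these samples.

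The acute phase response is the change in the set of plasma proteins that hepatocytes make during inflammation or injury. It is driven mainly by interleukin-6 acting through STAT3 and by interleukin-1 acting through NF-kB and C/EBP factors. Fibrinogen, the precursor of the clot, is assembled from pairs of alpha, beta and gamma chains encoded by neighbouring genes. Haptoglobin and haemopexin bind free haemoglobin and free haem, ceruloplasmin carries copper and oxidises iron, and C-reactive protein binds phosphocholine on microbes and dying cells. AHSG, also called fetuin-A, restrains calcification and is a negative acute phase protein, which falls in plasma during inflammation.

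The 250 bases before the annotated start are shown for FGB, FGG, HPX and AHSG, central to the results, and for the fibrinogen chain FGA. They are RefSeq sequences of GRCh38.p14, written along the strand of the gene, and capitals mark CTGGGAA on either strand, the core of the interleukin-6 response element described for fibrinogen genes. The windows are chr4:154562730-154562979 (plus strand) for FGB, chr4:154612657-154612906 (minus strand) for FGG, chr4:154590743-154590992 (minus strand) for FGA, chr11:6440988-6441237 (minus strand) for HPX and chr3:186612810-186613059 (plus strand) for AHSG.
FGB: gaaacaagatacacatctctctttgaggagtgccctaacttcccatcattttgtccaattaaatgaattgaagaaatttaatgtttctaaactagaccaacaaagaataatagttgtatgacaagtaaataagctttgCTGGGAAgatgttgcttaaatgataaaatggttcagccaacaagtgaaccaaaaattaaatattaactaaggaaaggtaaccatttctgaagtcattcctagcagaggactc
FGG: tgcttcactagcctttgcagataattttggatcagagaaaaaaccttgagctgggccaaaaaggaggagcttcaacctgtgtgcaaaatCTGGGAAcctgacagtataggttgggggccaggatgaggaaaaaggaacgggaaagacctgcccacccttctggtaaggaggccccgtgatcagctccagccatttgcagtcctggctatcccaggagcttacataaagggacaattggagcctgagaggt
FGA: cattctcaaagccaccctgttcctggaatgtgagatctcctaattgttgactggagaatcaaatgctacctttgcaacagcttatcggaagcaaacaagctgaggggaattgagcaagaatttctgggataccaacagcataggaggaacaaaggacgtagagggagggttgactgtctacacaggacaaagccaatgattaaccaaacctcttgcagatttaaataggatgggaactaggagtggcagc
HPX: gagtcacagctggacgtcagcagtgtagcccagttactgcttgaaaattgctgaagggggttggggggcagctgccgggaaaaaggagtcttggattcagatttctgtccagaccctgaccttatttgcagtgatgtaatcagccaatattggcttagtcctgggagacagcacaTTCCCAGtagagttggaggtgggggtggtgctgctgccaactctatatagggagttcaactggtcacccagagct
AHSG: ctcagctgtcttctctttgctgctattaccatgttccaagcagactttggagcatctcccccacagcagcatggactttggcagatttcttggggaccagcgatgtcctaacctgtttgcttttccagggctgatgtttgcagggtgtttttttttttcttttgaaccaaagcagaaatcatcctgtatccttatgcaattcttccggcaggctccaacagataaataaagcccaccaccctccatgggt
The motif lay 112 to 106 bases before the start of FGB, 161 to 155 bases before that of FGG and, on the opposite strand, 75 to 69 bases before that of HPX. No such letters stood in the windows of FGA and AHSG. The promoter sequences used here covered 8 of the 10 genes, all but HP and CP, with a second start for FGB. CTGGGAA was found in 5 of these 9 windows, or in 4 of 8 genes since the windows of FGB overlap and hold the same site, against 9.15% of 35116 windows of this length over all genes. The palindrome TTCNNNGAA, a form bound by STAT factors, was found in 2 of 9, against 6.57%. In ITIH4, which held both, the matches overlapped. TTNNGNAA, a loose form of the C/EBP site, was found in 9 of 9, with FGB counted in both its windows, against 33.2%. The base composition of these windows was not compared with that of all windows. A match is a description of the letters and was not tested as a binding site.

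The arrays fell into slide series by the leading digits of their numbers in the labels. Series A held all control and oleic acid samples with elaidic acid replicates 2 and 4, and series B held all stearic acid samples with elaidic acid replicates 1 and 3. Stearic acid and slide series therefore cannot be told apart directly against control or oleic acid, so that differences of the main members below are also given with slide series as a block. The block takes elaidic acid against control or oleic acid within series A (2 samples against 4) and elaidic against stearic acid within series B (2 against 4). Its value for stearic acid against control or oleic acid runs through the elaidic acid samples. Median intensity per array ran from 19.95 to 72.8 in series A and from 45.8 to 76.1 in series B. Probes of 9 hepatocyte marker genes were read as a check of the line. They were AFP, TTR, APOA1, APOB, APOH, SERPINA1, TF, FABP1 and TAT, and each had a probe above noise in all 16 samples. Their 14 probes summed to between 0.262% and 0.608% of the signal in control and oleic acid samples, and to between 0.741% and 1.21% in elaidic and stearic acid samples. Of 17 probes for 16 markers of other cell types, 8 exceeded noise in all samples, and those of COL3A1 and GFAP did so in none. The sum of the 17 was 0.0561% to 0.102% of the signal in control, oleic acid and elaidic acid samples, and 0.118% to 0.125% in stearic acid samples, with KRT19 the brightest. Their part in the results was not tested.

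Of the 9 probes, 7 were above 0 in every sample and entered the test. They were PH_hs_0023603 of FGB, PH_hs_0004325 of FGG, PH_hs_0019843 of HPX, PH_hs_0028098 of CP, PH_hs_0004413 of CRP, PH_hs_0004411 of ITIH4 and PH_hs_0016144 of AHSG. None of the 9 came near saturation. The highest intensity of a member was 2933, for HPX with stearic acid, while between 2 and 40 probes per array exceeded 60000. Noise was read from the lowest, negative value of each array, which ran from -18.5 to -11.0. FGB, FGG, HPX and AHSG exceeded the size of that value in 16 of 16 samples, CRP in 14, CP in 13 and ITIH4 in 6. Levels below are quantile-normalised log2 intensity, and differences are log2 differences from limma with their standard errors (SE, n = 4 per group). A probe counts as called where p, adjusted by Benjamini-Hochberg over all 22939 tested probes, was under 0.05.

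**Figure D1:**
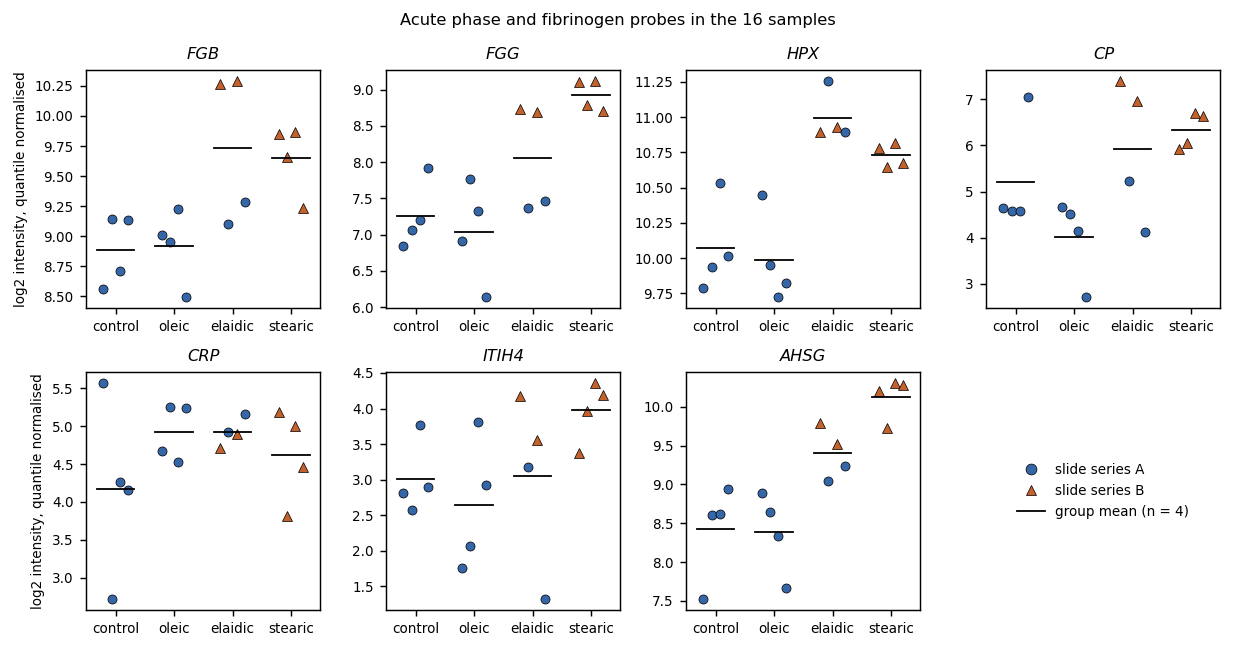
Quantile-normalised log2 intensity of the 7 tested probes (vertical axis) in the 4 groups (horizontal axis), 1 point per sample, with circles for slide series A, triangles for series B and bars for the group mean (n = 4). The HPX points of both series with elaidic acid lie above all control and oleic acid points, while the elaidic acid points of FGB, FGG and CP are split by series.

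HPX, the haem carrier, had its highest normalised levels with elaidic acid. Its mean deposited intensity, not scaled between arrays, was higher with stearic acid (2480) than with elaidic acid (2149). The log2 levels of control replicates 1 to 4 were 9.79, 9.94, 10.54 and 10.01, and those with oleic acid were 10.45, 9.95, 9.72 and 9.82. With elaidic acid the levels were 10.89, 11.26, 10.93 and 10.89, and with stearic acid 10.78, 10.64, 10.82 and 10.68. All elaidic acid samples, of both series, lay above every sample of the other 3 groups, and all stearic acid samples lay above all control and oleic acid samples. Against control, HPX differed by 0.93 ± 0.22 with elaidic acid, a ratio of 1.90, and did not pass (limma adjusted p = 0.0946). Within series A the difference was 1.01 ± 0.26 (limma adjusted p = 0.285). Against oleic acid, the cis isomer, it was 1.01 ± 0.22 over all samples (limma adjusted p = 0.0708) and 1.09 ± 0.26 within series A (limma adjusted p = 0.266). The mean of the 2 elaidic acid samples of series A was 11.07, and that of the 2 of series B was 10.91.

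The elaidic acid call of HPX depended on the setting. Its adjusted p against control was under the threshold with an offset of 50 (0.0198), with the brighter 50% of probes (0.0311) and with an intensity trend in the variances (0.0466), and ran up to 0.481 over all alternatives. Against oleic acid it was under the threshold with the same 3 settings (0.0129, 0.0208 and 0.0331), with cyclic loess (0.0485) and without oleic acid replicate 1 (0.0429), and ran up to 0.399. The difference itself stayed between 0.83 and 1.08 against control and between 0.92 and 1.16 against oleic acid. With stearic acid HPX rose by 0.66 ± 0.22 against control (limma adjusted p = 0.0356). That call was lost without any 1 of control replicates 1, 2 and 4 or of the 4 stearic acid replicates, at adjusted p between 0.0516 and 0.105, with replicate number as a block (0.0658) and without the 2 dimmest arrays, control replicate 1 and oleic acid replicate 4 (0.57, limma adjusted p = 0.0922). Blocked by slide series the value was 0.82 ± 0.37 (limma adjusted p = 0.648). Between elaidic and stearic acid the difference was 0.26 (95% interval -0.20 to 0.73), or 0.18 (-0.38 to 0.75) within series B.

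FGB, the beta chain of fibrinogen, split by slide series among the elaidic acid samples. Its log2 levels were 8.56, 9.14, 8.71 and 9.13 in control and 9.01, 8.95, 9.23 and 8.49 with oleic acid. With elaidic acid they were 9.10 and 9.28 in replicates 2 and 4 of series A, and 10.27 and 10.29 in replicates 1 and 3 of series B. With stearic acid they were 9.85, 9.66, 9.87 and 9.24. The elaidic acid samples of series A overlapped the control and oleic acid samples, and those of series B were the highest of all 16. Over all samples FGB differed by 0.85 ± 0.30 between elaidic acid and control (limma adjusted p = 0.232), and by 0.31 ± 0.27 within series A (limma adjusted p = 1.00). Within series B it was 0.62 ± 0.27 higher with elaidic than with stearic acid (95% interval 0.04 to 1.21, limma adjusted p = 0.803). Over all samples that difference was 0.08 ± 0.30.

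FGG, the gamma chain, had a similar split. Control levels were 6.84, 7.06, 7.19 and 7.91, and oleic acid levels 6.91, 7.77, 7.32 and 6.14. Elaidic acid levels were 7.37 and 7.46 in series A and 8.73 and 8.69 in series B, and stearic acid levels were 9.11, 8.78, 9.12 and 8.70. Every sample of series B lay above every sample of series A, whichever acid it had received. FGG rose by 1.67 ± 0.39 with stearic acid against control, a ratio of 3.19 (limma adjusted p = 0.00767), and was lower with oleic than with stearic acid (difference -1.89 ± 0.39, limma adjusted p = 0.00377). Blocked by slide series these were 0.38 ± 0.54 (95% interval -0.79 to 1.54) and -0.60 ± 0.54 (-1.76 to 0.57), and neither passed. Elaidic acid differed from control by 0.81 ± 0.39 over all samples and by 0.16 ± 0.39 within series A, and passed in neither. The elaidic acid samples of series B differed from stearic acid by -0.22 ± 0.39 (95% interval -1.04 to 0.61).

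A second probe of FGG, PH_hs_0031320, did not follow the first across the slide series. It was at or below 0 in 3 samples and entered no test. Its deposited intensity was 178 and 668 in control replicates 3 and 4, 163 and 275 in oleic acid replicates 1 and 2, and 159 in elaidic acid replicate 4. In the other 11 samples it was between -2.55 and 12.7, below the noise of the array. The 5 samples with signal were all of series A, where the tested probe of FGG ran from 34.2 to 353, and the 6 samples of series B had none, where the tested probe ran from 517 to 775. Within series A both probes were highest in control replicate 4 and oleic acid replicate 2, with the tested probe at 353 and 230. In oleic acid replicate 3 the tested probe was at 179 and the second at -2.55. With an offset of 50 the stearic acid difference from control was -1.31 ± 0.79 for this probe (limma adjusted p = 0.248), opposite in sign to that of the tested probe. The transcript that each probe reads is not given in the sources used here.

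**Figure D2:**
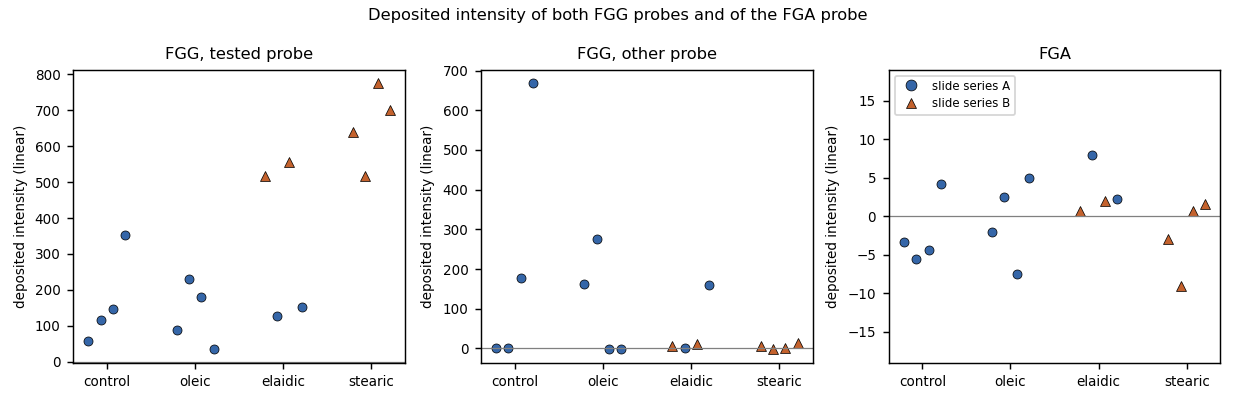
Deposited intensity on a linear scale (vertical axis) of both FGG probes and of the FGA probe in the 4 groups (horizontal axis), 1 point per sample, with circles for slide series A and triangles for series B. The second FGG probe has signal in 5 samples of series A, up to 668, and the FGA probe stays between -9.00 and 8.0.

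FGA, the alpha chain, gave no signal. Its probe, PH_hs_0028209, was between -9.00 and 8.0 in all 16 samples, at or below 0 in 7 of them, and in no sample above the noise of the array. No level or ratio is therefore given for FGA, and the probe does not show whether the transcript is present.

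AHSG, the negative acute phase protein among the tested members, ranked the groups as FGG did. Its log2 levels were 7.52, 8.61, 8.61 and 8.94 in control, and 8.89, 8.64, 8.33 and 7.66 with oleic acid. With elaidic acid they were 9.04 and 9.24 in series A and 9.79 and 9.52 in series B, and with stearic acid 10.21, 9.73, 10.31 and 10.28. All elaidic acid samples lay above all control and oleic acid samples, and stearic acid overlapped elaidic acid only through stearic acid replicate 2. AHSG rose by 1.71 ± 0.32 with stearic acid against control, a ratio of 3.27 (limma adjusted p = 0.00294). It was lower with oleic than with stearic acid (difference -1.75 ± 0.32, limma adjusted p = 0.00251). With slide series as a block the differences kept their sign, at 1.20 ± 0.55 and -1.24 ± 0.55, and did not pass (limma adjusted p = 0.651, limma adjusted p = 0.730). Elaidic acid differed from control by 0.98 ± 0.32 (limma adjusted p = 0.212) and by 0.72 ± 0.39 within series A (limma adjusted p = 0.832).

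CP, the copper carrier, had a dim probe with a wide spread. Control levels were 4.64, 4.58, 4.58 and 7.05, with replicate 4 far above the others, and oleic acid levels 4.67, 4.52, 4.14 and 2.71. Elaidic acid levels were 5.23 and 4.12 in series A and 7.41 and 6.97 in series B, and stearic acid levels 5.93, 6.05, 6.70 and 6.65. Oleic acid replicates 1 and 4 and elaidic acid replicate 4 did not exceed noise, so that the level of oleic acid rests partly on background. CP was lower with oleic than with stearic acid (difference -2.33 ± 0.70, limma adjusted p = 0.0201). That call was lost without oleic acid replicate 4 (difference -1.91, limma adjusted p = 0.0699), without stearic acid replicate 3 (-2.19, limma adjusted p = 0.0501) or without the 2 dimmest arrays, control replicate 1 and oleic acid replicate 4 (-1.94, limma adjusted p = 0.0647). Blocked by slide series the sign turned, to 0.19 ± 0.95. Against control, the difference with elaidic acid was 0.72 ± 0.70 over all samples and -0.54 ± 0.67 within series A, and neither passed.

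CRP and ITIH4 lay near the noise. CRP, the C-reactive protein gene, had deposited intensities between 7.15 and 41.0, and ITIH4, an inter-alpha-trypsin inhibitor heavy chain, between 2.43 and 26.7. The groups overlapped for CRP in all 6 comparisons, and its differences from control were 0.75 ± 0.46 for oleic acid, 0.75 ± 0.46 for elaidic acid and 0.44 ± 0.46 for stearic acid. No difference of CRP or ITIH4 passed in the model of all samples. For ITIH4 the differences from control were -0.37 ± 0.55, 0.04 ± 0.55 and 0.96 ± 0.55 in the same order, and with slide series as a block the latter pair turned to -0.77 ± 0.58 and -0.66 ± 0.82. Blocked, the differences of CRP from control were 0.75 ± 0.47, 0.87 ± 0.58 and 0.67 ± 0.81. ITIH4 was at -1.33 ± 0.55 in oleic against stearic acid (limma adjusted p = 0.0622) and passed there with cyclic loess (0.0499), with only the 2 groups in the model (0.0342) and without oleic acid replicate 3 (0.0298), and in stearic acid against control with only the 2 groups (0.0466). In 10 of the 16 samples its probe did not exceed noise.

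**Figure D3:**
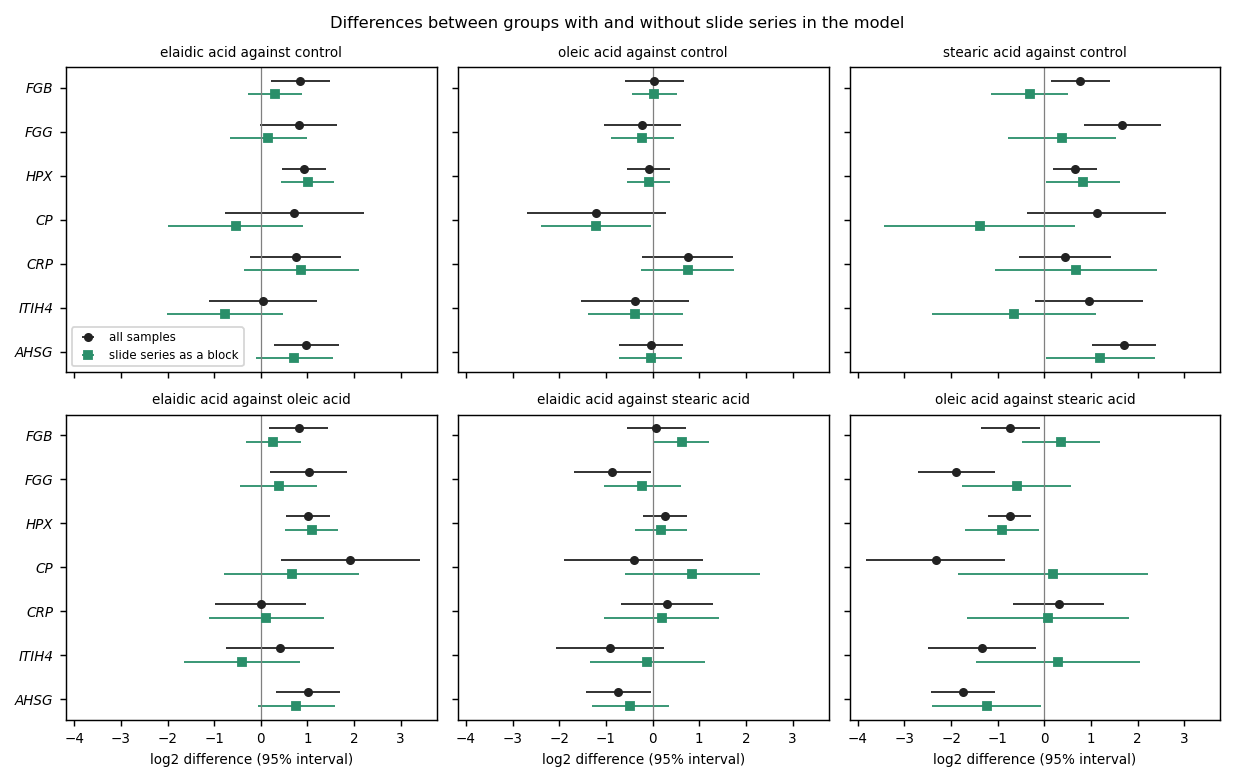
Log2 differences of the 7 tested probes (rows) in the 6 comparisons (panels), with 95% intervals from limma over all 16 samples (black circles) and with slide series as a block (green squares). Both values of HPX lie near 1 for elaidic acid against control and against oleic acid, while those of FGB, FGG and CP for elaidic and stearic acid against control move towards or past 0 with the block.

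All calls of members lay in the comparisons of stearic acid with control and with oleic acid. Against control, 3 of the 7 tested probes were called higher with stearic acid (FGG, HPX and AHSG) and 0 lower, where 15% of all tested probes were called higher and 14.8% lower. The median of the 7 was 0.96, beside -0.18 over all tested probes, and in 4 of 7, these and FGB, the groups did not overlap, as in 18.7% of all probes. Between oleic and stearic acid 4 of 7 were called lower with oleic acid (FGG, HPX, CP and AHSG) and 0 higher, where 18.4% of all tested probes were called lower and 21% higher. The median of the 7 was -1.33, beside 0.21 over all, and in 5 of 7, these and FGB, the groups did not overlap, as in 21.2% of all probes. Without oleic acid replicate 4, the probes called were FGG and AHSG. The share of all probes called without that sample is not given here, so the change is not particular to the members. FGB stood just outside the threshold in both comparisons, at limma adjusted p = 0.0608 and limma adjusted p = 0.0605, and passed in both with median scaling, cyclic loess, the brighter 50% of probes, the intensity trend and only the 2 groups in the model. Its adjusted p under these 5 settings was 0.0333 to 0.0453 against control and 0.0336 to 0.0456 in oleic against stearic acid, and it also passed against control with the offset of 50 (0.0498). With slide series as a block 0 of 7 were called in either comparison, and 0 of 22939 probes, with 2 of 7 at an unadjusted p under 0.05 in each, namely HPX and AHSG, beside 4.09% of all probes higher with stearic acid than in control and 3.5% lower with oleic than with stearic acid. The medians of the 7 were then 0.38 and 0.08.

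With elaidic acid 0 of 7 probes were called by limma against control, where 0.305% of all tested probes were called higher and 0.0174% lower. All 7 differences were above 0, as were 43.5% of all tested probes, and the median was 0.81, beside -0.10 over all. At an unadjusted p under 0.05, 3 of 7 were higher (FGB, HPX and AHSG), beside 8.1% of all probes, and HPX and AHSG did not overlap with control, beside 3.82% of all probes. Within series A the median was 0.31, and HPX was the 1 member with an unadjusted p under 0.05 there, beside 3.13% of all probes. The share of all probes called there was 0.0262% higher and 0.0131% lower, with 0 members. Against oleic acid 0 of 7 were called, beside 0.301% of all probes called higher. There 5 of 7 had an unadjusted p under 0.05 (FGB, FGG, HPX, CP and AHSG), beside 10.5% of all probes, and the median was 1.01 over all samples and 0.38 within series A. HPX and AHSG did not overlap with oleic acid, beside 4.07% of all probes. Again HPX was the 1 member with an unadjusted p under 0.05 within series A, beside 2.68%, and 0 members were called there, beside 0.0174% of all probes called higher and 0.00436% lower. The comparisons with control share the control samples, and those with elaidic acid share its samples, so that they are not independent of each other.

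With oleic acid against control 0 of 7 were called by limma, as were 0 of all 22939 tested probes, with 0 of 7 at an unadjusted p under 0.05 and 602 of all probes, 1.4% higher and 1.22% lower. All samples of both groups were of series A. The median of the 7 was -0.08, and for 0 of 7 were the groups apart, beside 0.606% of all probes higher and 0.628% lower. The 95% interval was -0.60 to 0.67 for FGB, -1.04 to 0.61 for FGG, -0.55 to 0.38 for HPX and -0.73 to 0.65 for AHSG. CP had the largest difference of the 7, at -1.20 ± 0.70. Between elaidic and stearic acid 0 of 7 were called by limma, beside 0.31% of all probes called lower with elaidic acid and 0.0872% higher. At an unadjusted p under 0.05 FGG and AHSG were lower with elaidic acid, at -0.86 ± 0.39 and -0.73 ± 0.32, beside 7.78% of all probes. Within series B these were -0.22 ± 0.39 and -0.48 ± 0.39, and FGB was the 1 member with an unadjusted p under 0.05, higher with elaidic acid, beside 2.24%. There 0 members were called, beside 0% of all probes called higher and 0.00436% lower. HPX was the 1 member whose groups did not overlap, higher with elaidic acid, beside 4.72% of all probes. The median of the 7 was -0.40, and 0.20 without elaidic acid replicate 4.

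Over the 16 samples Pearson's r was 0.91 between FGG and AHSG, 0.85 between FGB and FGG and 0.74 between HPX and AHSG. After the mean of each slide series was subtracted these were 0.67, 0.44 and 0.60. FGG and CP were at 0.85 (0.61) and FGB and AHSG at 0.78 (0.32), with the value after subtraction in brackets. CP was at 0.76 with both FGB (0.40) and AHSG (0.37). CRP had an r between -0.14 and 0.13 with every other member. Among genes outside the list, the closest to FGB was RAB32 at 0.95, or 0.83 after that subtraction. The closest to FGG was LARP1 at 0.97 (0.88), to HPX CLIC3 at 0.95 (0.93), to AHSG RALY at 0.99 (0.96), to CP EML2 at 0.96 (0.91), to CRP NPTXR at 0.85 (0.85) and to ITIH4 DIXDC1 at 0.84 (0.70). These are descriptions over samples that share slides and groups, each picked as the highest over all tested probes.

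The list of other positive acute phase genes is a broad one, and not all of its genes are established positive reactants. Its calls lay in the comparisons with stearic acid. Of 35 listed 24 had a probe and 23 were tested, with 1 probe per gene. With stearic acid against control 13 were called higher and 0 lower, beside 15% and 14.8% of all tested probes: SAA4, SERPINA1, HPR, C3, C1S, C5, C8B, LRG1, A2M, ITIH2, LCN2, SOD2 and VTN. The median was 1.08 with 20 of 23 above control, beside 43.2% of all tested probes. With slide series as a block it was 0.24 with 14 of 23 above, beside 50.8% of all tested probes. C3, the central complement component, was at 2.92 ± 0.76 and at 0.73 ± 1.17 with slide series as a block. HPR, a close copy of HP whose probe may also bind HP, was at 2.07 ± 0.50 and at 0.31 ± 0.68 with the block. With elaidic acid 22 of 23 were above control, beside 43.5% of all tested probes, with 0 called, and the values of smallest p were 0.89 ± 0.19 for ITIH1, 1.28 ± 0.28 for LRG1 and 1.77 ± 0.40 for SOD2. Within series A these were 0.99 ± 0.22, 0.74 ± 0.25 and 0.96 ± 0.33. There 17 of 23 were above control, beside 52.2% of all tested probes, with a median of 0.49. Between oleic and stearic acid 15 were called lower with oleic acid, beside 18.4% of all tested probes, namely the same 13 and ITIH3 and IL1RN.

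In the list of other negative acute phase genes, which is as broad, most called genes were higher too. Of 20 listed 15 were tested, and with elaidic acid against control 2 were called, both higher, beside 0.305% of all tested probes. SERPINA6, the cortisol carrier, rose by 1.34 ± 0.20 (limma adjusted p = 0.00942), and TTR, the thyroxine and retinol carrier transthyretin, by 1.73 ± 0.28 (limma adjusted p = 0.0140). Within series A they were at 1.21 ± 0.24 and 1.66 ± 0.34 and did not pass (limma adjusted p = 0.0911, limma adjusted p = 0.120). TF, the iron carrier, was at 2.24 ± 0.48 and did not pass, and at 1.49 ± 0.49 within series A. Against oleic acid TTR and APOH were called higher with elaidic acid, at 1.82 ± 0.28 and 1.21 ± 0.22, and at 1.75 ± 0.34 and 1.05 ± 0.26 within series A. With stearic acid against control 7 were called higher (TF, APOA1, APOH, SERPINA6, SERPINA7, SERPINA4 and AMBP) and 2 lower (SERPINC1 and FETUB), beside 15% and 14.8% of all tested probes. The median was 0.90, and 0.29 with slide series as a block. Oleic against stearic acid gave 8 lower, the same 7 and IGFBP2, and 1 higher, FETUB, beside 18.4% and 21% of all tested probes. In the blocked model 0 genes of either list were called in any comparison.

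Of 38 listed receptors and signalling genes of the response 28 were tested. With elaidic acid against control 0 were called, the median was 0.25, and the values of smallest p were 1.92 ± 0.64 for CEBPB, 0.91 ± 0.30 for SOCS1 and 1.23 ± 0.43 for PTPN11, with 0.91 ± 0.66, 0.90 ± 0.38 and 0.49 ± 0.41 within series A. STAT3 was at 0.18 ± 0.21 and its induced inhibitor SOCS3 at -0.41 ± 0.40, with 0.17 ± 0.25 and -0.36 ± 0.50 within series A. With stearic acid against control 8 were called higher and 0 lower, beside 15% and 14.8% of all tested probes: IL6R, SOCS1, PTPN11, IRAK1, NFKB1, RELA, CEBPB and CEBPD. The median was 0.58, and 0.33 with slide series as a block. IL6R, the interleukin-6 receptor, was lower with elaidic than with stearic acid (difference -1.59 ± 0.31, limma adjusted p = 0.0468), and at -1.09 ± 0.31 within series B (limma adjusted p = 0.405). Between oleic and stearic acid 9 were called lower, these 8 and LIFR, and TRAF6 was called higher, beside 18.4% and 21% of all tested probes. In the blocked model 0 were called in any comparison.

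The last list held genes of haem and iron handling and of clotting, the settings in which haemopexin and fibrinogen act. Of 25 listed 22 were tested. HMOX1, the haem oxygenase that breaks down haem brought in by haemopexin, rose by 1.81 ± 0.35 with elaidic acid (limma adjusted p = 0.0404) and by 2.95 ± 0.35 with stearic acid (limma adjusted p = 6.5e-04). With slide series as a block it was at 1.16 ± 0.32 and 1.66 ± 0.46, and did not pass. SERPINF2, the inhibitor of plasmin, at 0.85 ± 0.18 and F10 at 1.36 ± 0.41 did not pass with elaidic acid, and LRP1, the receptor for haem bound to haemopexin, was at 0.65 ± 0.27. Within series A these were 0.90 ± 0.22, 0.72 ± 0.42 and 0.50 ± 0.33. With oleic acid against control SERPINF2, F10 and LRP1 were at 0.40 ± 0.18, -0.03 ± 0.41 and 0.65 ± 0.27, and none passed. LRP1 was thus as high with oleic as with elaidic acid (difference 0.003 ± 0.27). With stearic acid HMOX1, BLVRA, LRP1, SLC40A1, TFRC, F2, F10, F13B, SERPINF2 and CPB2 were called higher, and HMOX2 and F7 lower, 10 and 2 of 22 beside 15% and 14.8% of all tested probes. The median was 0.42, and 0.29 with slide series as a block. Between oleic and stearic acid 8 were called lower with oleic acid (HMOX1, BLVRA, SLC40A1, TFRC, F2, F10, F13B and CPB2) and 2 higher, HMOX2 and F7, beside 18.4% and 21% of all tested probes. With the block 0 were called.

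**Figure D4:**
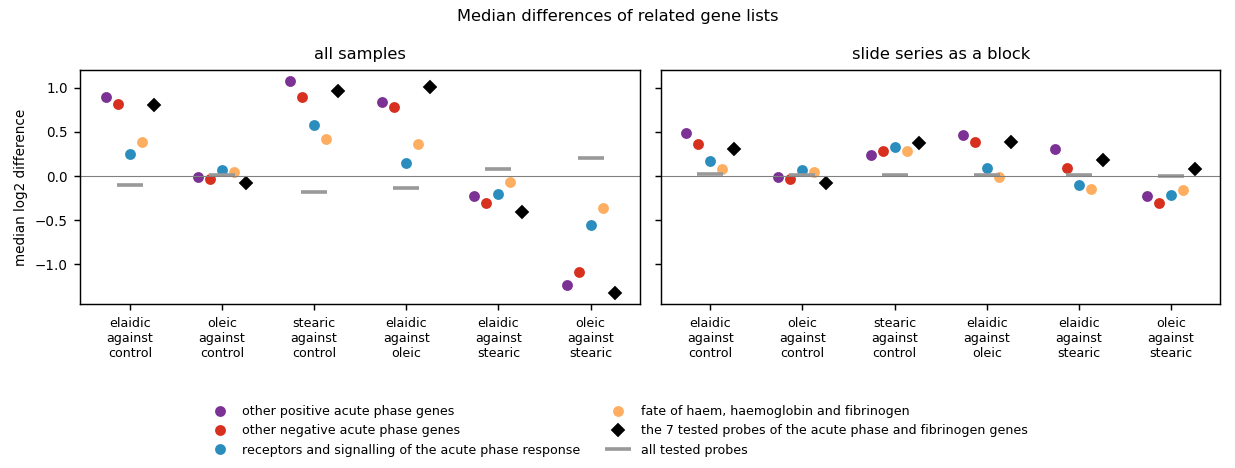
Median log2 difference (vertical axis) of 4 further gene lists, of the 7 tested acute phase and fibrinogen probes and of all tested probes, in the 6 comparisons (horizontal axis), over all samples (left) and with slide series as a block (right). The medians reach 1.08 with stearic acid against control on the left and stay under 0.50 on the right.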

How the data were processed

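Intensity on a linear scale was deposited by the authors, 1 value per probe and sample, background already subtracted and the samples not scaled to each other, as the negative values and unequal medians show. The labels name 2 technical replicates per sample. How they were combined, and with which background method, is not given in the sources used here. Symbols came from the platform's probe table, in which 17397 of 30968 probes have one. The number of arrays limits the precision.

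Only the 22939 probes with values above 0 throughout were tested. Their log2 values were quantile normalised and fitted in R 4.3.3 by limma 3.58.1, two-sided, with all 16 samples in 1 model of group means (lmFit, eBayes), and the fit was tested on simulated data. Figures used matplotlib 3.10.9 in Python 3.11.15. The genes, the further lists and the tests were chosen with earlier results of these data known. Every member was named. Of each further list, the genes called in any comparison and the 3 of smallest p in elaidic acid against control were named (the brightest probe of a gene), and for each member the gene outside the list with the highest Pearson's r. STAT3, SOCS3 and LRP1 were named after their values were seen. Alternatives covered the normalisation, an offset, dim and saturated probes, the variance model, slide series, replicate number and left-out samples.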

Additional observations from a re-analysis of the deposited data

Results flagged for a closer look

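Among 36 sets of 4 replicates (9 probes in 4 groups), 3 held a sample far from the other 3 replicates by Dixon's test, where chance gives about 1 in 20. CP in control replicate 4 had a log2 level of 7.05, with the nearest control sample at 4.64. HPX in elaidic acid replicate 2 had a log2 level of 11.26, with the nearest at 10.93. The second FGG probe in elaidic acid replicate 4 had a deposited intensity of 159, with the nearest at 10.4. Control replicate 4 was the brightest array of series A, with a median intensity of 72.8.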

How the results depend on the processing

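Slide series as a block changed most. The number of members called went to 0 for stearic acid against control and to 0 for oleic against stearic acid, and the median over the 7 probes went to 0.38 for stearic acid against control, 0.38 for elaidic against oleic acid, 0.18 for elaidic against stearic acid and 0.075 for oleic against stearic acid. It turned the sign of FGB to -0.32 and 0.35 (stearic acid against control, oleic against stearic acid), of CP to -0.54, -1.39, 0.85 and 0.19 (elaidic and stearic acid against control, elaidic and oleic against stearic acid), of ITIH4 to -0.77, -0.66, -0.39 and 0.28 (elaidic and stearic acid against control, elaidic against oleic acid, oleic against stearic acid) and of CRP to 0.12 (elaidic against oleic acid). For elaidic acid against control 1 member was called with the offset of 50, with the brighter 50% of probes and with the intensity trend. For elaidic against oleic acid 1 was called with these 3 settings and with cyclic loess. For stearic acid against control 5 were called with only the 2 groups in the model, and the offset moved the median of oleic against stearic acid to -0.71. For settings other than the slide series block, and with samples left out, the share of all probes called is not given here. A change in the number of members called is therefore not told apart from a change over all probes. Other sign changes were of values near 0: ITIH4 in elaidic acid against control at -0.20 with median scaling and -0.020 without the 2 dimmest arrays (an alternative chosen after seeing the data, which also ended the calls of HPX in stearic acid against control and of CP in oleic against stearic acid), CRP in elaidic against oleic acid at 0.058 with cyclic loess and 0.11 without the 2 dimmest arrays, and FGB in elaidic against stearic acid at -0.037 with median scaling. The causes were not tested.

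Leaving out 1 sample gave 0 to 1 called members for elaidic against oleic acid, 2 to 3 for stearic acid against control and 2 to 5 for oleic against stearic acid, and a median of -0.86 to 0.20 for elaidic against stearic acid. The sign turned in 24 of 336 values with 1 sample left out, none of them called. Their ranges were -0.47 to 0.079 (FGG), -0.34 to 0.20 (AHSG), -0.24 to 0.073 (HPX) and -0.074 to 0.18 (FGB) in oleic acid against control, -0.33 to 0.62 (ITIH4) in elaidic acid against control, -0.044 to 0.92 (CRP) in stearic acid against control, -0.13 to 0.11 (CRP) in elaidic against oleic acid, and -0.10 to 0.29 (FGB) and -0.89 to 0.20 (CP) in elaidic against stearic acid. Same-numbered samples of different groups correlated between -0.46 and 0.36 in their deviations from the group means. Differently numbered samples were not compared with these, so that pairing by replicate number is not decided. With the replicate block 2 members were called for stearic acid against control and 4 for oleic against stearic acid. That block ended the call of HPX in stearic acid against control and changed no other call of a member.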
